A study of Mus musculus with 12 samples.

Results

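The chemokine ligand and chemokine receptor genes of the mouse were examined in brown and white adipose tissue for promoter peaks of the histone marks H3K9me2 and H3K9me3. They were taken by symbol, as protein-coding autosomal genes named Ccl, Cxcl, Ccr or Cxcr with a number, or Cx3cl1, Cx3cr1, Xcl1 and Xcr1, which gave 56 of the 21327 protein-coding autosomal genes of the mm9 annotation. Of these, 37 encode ligands and 19 encode receptors, and 1 further gene with a fitting symbol, Cxcr3, lies on the X chromosome and was left out. A gene was counted as carrying a mark in a list when a peak with a score of 50 or more lay within 3 kb of any of its annotated starts.

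The mice were wild-type C57BL/6J animals fed a high-fat diet (HFD) or a standard chow diet (SCD) for 12 weeks from 6 weeks of age. Chromatin immunoprecipitation sequencing was done in brown adipose tissue (BAT) and subcutaneous white adipose tissue (WAT) of each diet, which gave the groups HFD BAT, SCD BAT, HFD WAT and SCD WAT, each with 1 H3K9me2 and 1 H3K9me3 peak list. The 4 input libraries of the 12 were not analysed here. With 1 library per diet, tissue and mark there was no replicate, so no difference between diets has an error or a test, and the values below describe these libraries. The methods of the study pair the H3K9me2 label with an antibody described as trimethyl and the H3K9me3 label with one described as dimethyl, and the marks are named here as the labels give them.

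Chemokines are small secreted proteins that guide leukocytes along a gradient, and their receptors are G protein-coupled receptors on the responding cells. In the adipose tissue of obese animals they are known for drawing in monocytes, macrophages and T cells, with the ligand Ccl2 and its receptor Ccr2 as the best studied pair. Methylation of lysine 9 of histone H3 is a mark of repressed chromatin, with the trimethyl form typical of heterochromatin and the dimethyl form of silenced genes. Peaks from whole tissue do not tell which cells carried the mark, nor how many of them.

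The promoters that the results turn on are printed below from 250 bases before to 50 bases after the start of the gene record, on build mm9, with every CpG dinucleotide in capitals and the rest in lower case. Cxcl12 (chr6:117118303-117118602, plus strand, 20 CpG) and Cxcl14 (chr13:56397863-56398162, minus strand, 22 CpG) are shown because they carried a peak in all 8 lists. Ccl2 (chr11:81848823-81849122, plus strand, 4 CpG), the main monocyte attractant, is shown as a member with a peak in none. Cxcl3 (chr5:91214879-91215178, plus strand) and Cxcl1 of the same gene cluster (chr5:91320017-91320316, plus strand) are shown because both held 10 CpG, while Cxcl3 had a peak in 6 lists and Cxcl1 in none. For Ccr9 the start of the gene record (chr9:123587307-123587606, plus strand, 19 CpG) and the start nearest the start codon (chr9:123676097-123676396, plus strand, 3 CpG) are both shown, because every promoter peak of Ccr9 lay at the first and none at the second.
Cxcl12: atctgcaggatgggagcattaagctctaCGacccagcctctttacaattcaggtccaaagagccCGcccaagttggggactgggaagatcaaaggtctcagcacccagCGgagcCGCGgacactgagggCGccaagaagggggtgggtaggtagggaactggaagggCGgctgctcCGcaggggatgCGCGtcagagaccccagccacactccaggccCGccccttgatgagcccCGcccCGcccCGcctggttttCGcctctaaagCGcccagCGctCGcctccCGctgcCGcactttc
Cxcl14: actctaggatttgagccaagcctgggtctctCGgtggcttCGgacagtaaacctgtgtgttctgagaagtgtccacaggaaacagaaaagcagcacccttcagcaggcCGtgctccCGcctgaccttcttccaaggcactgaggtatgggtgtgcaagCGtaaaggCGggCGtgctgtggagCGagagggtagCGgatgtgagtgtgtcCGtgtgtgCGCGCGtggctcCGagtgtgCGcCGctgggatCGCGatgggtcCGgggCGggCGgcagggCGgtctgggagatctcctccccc
Ccl2: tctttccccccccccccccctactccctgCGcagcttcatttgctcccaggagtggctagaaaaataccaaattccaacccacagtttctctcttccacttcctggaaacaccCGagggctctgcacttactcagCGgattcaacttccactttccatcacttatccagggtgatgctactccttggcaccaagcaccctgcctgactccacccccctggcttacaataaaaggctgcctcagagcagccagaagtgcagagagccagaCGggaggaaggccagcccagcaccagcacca
Cxcl3: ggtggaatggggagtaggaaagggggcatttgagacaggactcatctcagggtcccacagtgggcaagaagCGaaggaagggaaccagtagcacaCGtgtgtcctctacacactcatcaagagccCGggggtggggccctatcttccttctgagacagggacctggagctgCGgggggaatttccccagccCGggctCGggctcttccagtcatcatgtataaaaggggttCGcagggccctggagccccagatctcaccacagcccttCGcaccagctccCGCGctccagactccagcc
Cxcl1: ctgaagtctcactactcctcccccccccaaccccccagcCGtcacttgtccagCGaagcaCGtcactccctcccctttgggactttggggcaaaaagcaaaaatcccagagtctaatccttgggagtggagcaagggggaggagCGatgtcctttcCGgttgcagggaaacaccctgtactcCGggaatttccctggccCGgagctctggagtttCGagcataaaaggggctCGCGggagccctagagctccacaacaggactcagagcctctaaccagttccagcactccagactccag
Ccr9, gene record: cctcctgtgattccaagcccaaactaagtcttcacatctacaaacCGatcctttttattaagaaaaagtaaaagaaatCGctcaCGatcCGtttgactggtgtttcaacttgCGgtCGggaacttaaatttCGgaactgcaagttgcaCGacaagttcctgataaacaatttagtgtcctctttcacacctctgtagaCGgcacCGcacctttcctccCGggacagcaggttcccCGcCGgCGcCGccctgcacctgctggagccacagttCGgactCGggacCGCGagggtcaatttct
Ccr9, start codon: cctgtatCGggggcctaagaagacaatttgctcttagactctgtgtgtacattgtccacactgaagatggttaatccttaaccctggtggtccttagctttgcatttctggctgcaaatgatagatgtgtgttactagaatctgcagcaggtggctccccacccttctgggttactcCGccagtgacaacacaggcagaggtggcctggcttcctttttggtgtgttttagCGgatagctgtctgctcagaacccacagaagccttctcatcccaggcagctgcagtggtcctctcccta

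The lists held 43173 peaks in HFD BAT and 24887 in SCD BAT for H3K9me2, and 52758 in HFD BAT and 26835 in SCD BAT for H3K9me3, counting scores of 50 or more. In WAT there were 21976 H3K9me2 peaks in HFD mice and 21746 in SCD mice, and 29190 H3K9me3 peaks in HFD mice and 8350 in SCD mice. The score has no stated unit. Its range was that of a peak caller's p-value on a -log10 scale, multiplied by 10, and it was not scaled between lists. The lowest score was 30 in both SCD WAT lists and 50 or 50.01 in the other 6, and the sequencing depth behind the lists is unknown, so a gene without a peak was not called at these depths and cannot be read as unmarked. The files hold no expression values, and the tissue labels could be looked at only through promoter peaks. Among 8 brown adipocyte markers, H3K9me3 peaks lay at 6 in HFD BAT and 2 in SCD BAT, and at 3 in HFD WAT and 2 in SCD WAT, and H3K9me2 peaks at 4 in HFD BAT and 3 in SCD BAT, and at 3 in HFD WAT and 2 in SCD WAT. Among 7 white adipocyte markers, H3K9me3 peaks lay at 3 in HFD BAT, 2 in SCD BAT, 1 in HFD WAT and 0 in SCD WAT. H3K9me2 peaks lay at 2 in HFD BAT, 2 in SCD BAT, 2 in HFD WAT and 3 in SCD WAT. Of all genes, H3K9me3 peaks lay at 60.6% in HFD BAT, 53.3% in SCD BAT, 37.2% in HFD WAT and 7.16% in SCD WAT. For H3K9me2 these shares were 47.6% in HFD BAT, 44.3% in SCD BAT, 40.5% in HFD WAT and 43.6% in SCD WAT. The brown adipocyte markers Prdm16 and Zic1 had a peak in all 8 lists, Ucp1 in 4 and Cidea in 3. Elovl3 and Cox8b had a peak in 1 list each, and Dio2 and Ppargc1a in none. Of the white adipocyte markers, Tcf21 had a peak in 7 lists and Hoxc8 in 5. Lep, Hoxc9 and Agt had a peak in 1 list each, and Retn and Adipoq in none.

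At most chemokine and receptor genes neither mark was called. A promoter peak was found in 1 list or more at 16 members (28.6%), against 69.7% of all genes, and 40 members (71.4%) had no peak in any list, against 30.3% of all genes. In 6 lists or more there were 6 members (10.7%), against 31.8% of all genes, and in all 8 lists there were 2 members (3.57%), against 3.86% of all genes. The choice of the lowest score, the promoter width and the starts counted moved the number of members with any peak between 12 and 20.

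In BAT, H3K9me2 was called at 10 members (17.9%) in HFD mice and 6 (10.7%) in SCD mice, against 47.6% of all genes in HFD mice and 44.3% in SCD mice. H3K9me3 was called at 10 members (17.9%) in each diet, against 60.6% of all genes in HFD BAT and 53.3% in SCD BAT. In WAT, H3K9me2 was called at 7 members (12.5%) in each diet, against 40.5% of all genes in HFD mice and 43.6% in SCD mice. H3K9me3 in WAT was called at 9 members (16.1%) in HFD mice, against 37.2% of all genes, and at 5 members (8.93%) in SCD mice, against 7.16% of all genes. The share of members was below that of all genes in 7 of the 8 lists, with the shortest list, SCD WAT H3K9me3, as the exception.

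**Figure D1:**
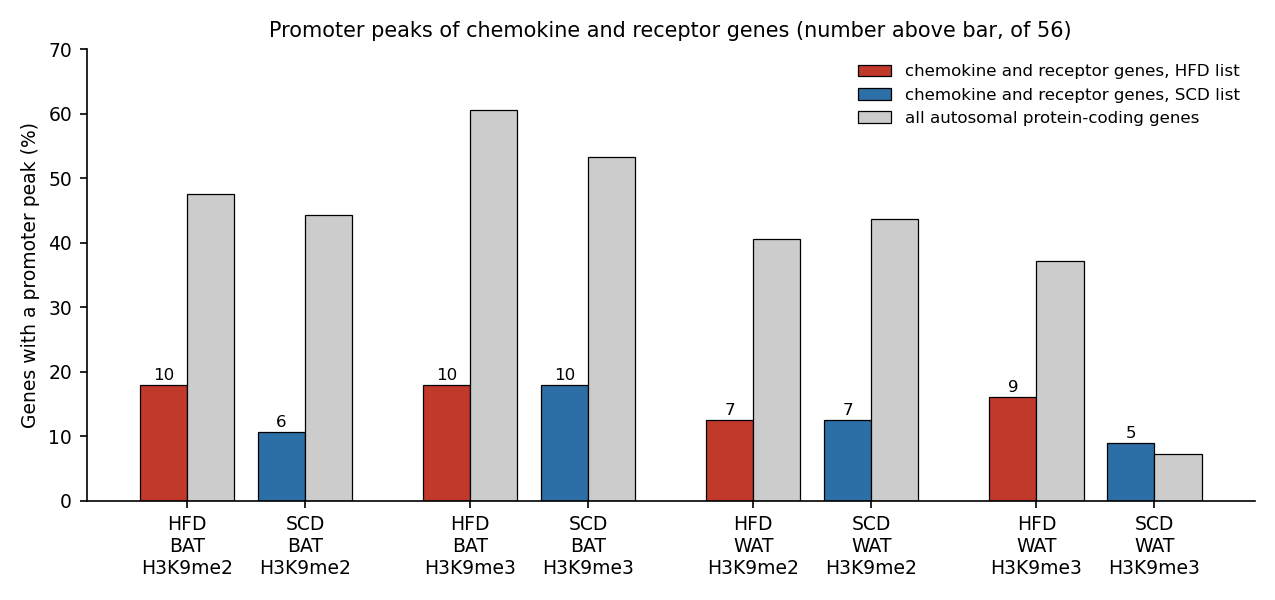
Percent of the 56 chemokine and receptor genes and of all 21327 autosomal protein-coding genes with a promoter peak in each of the 8 lists. The members lie between 8.93% and 17.9%, below all genes in 7 lists and slightly above them (8.93% against 7.16%) in SCD WAT H3K9me3.

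By role, the inflammatory CC ligands, which attract monocytes, T cells and eosinophils, had a called peak in any list at 2 of 16 genes (Ccl1 and Ccl26). For Ccl1 it lay at a start 126 kb from the one nearest the start codon. For Ccl26 the peaks had middles 2458 to 2557 bp downstream of the start. For each role the share among all genes is 69.7%, and CpG content, which differs between the members and all genes, is given further on. No promoter peak was called in any list at Ccl2, Ccl7 and Ccl12, which bind Ccr2, or at Ccl8. None was called at Ccl3, Ccl4 and Ccl5, which attract monocytes and T cells, or at the eosinophil attractants Ccl11 and Ccl24. The same held for Ccl6 and Ccl9, for the Ccr4 ligands Ccl17 and Ccl22 and for the Ccr6 ligand Ccl20. Both interferon-induced ligands of Cxcr3, Cxcl9 and Cxcl10, had none. Of the 7 homeostatic CC ligands, which position lymphocytes in lymphoid organs and barrier tissues, Ccl25, Ccl27a and Ccl27b had a peak, while Ccl19, Ccl21a, Ccl21b and Ccl21c had none. Of the 5 neutrophil-attracting CXC ligands, Cxcl2, Cxcl3 and Cxcl5 had one, and Cxcl1 and Cxcl15 did not. Of the 7 other ligands, Cxcl12, Cxcl14 and the membrane-bound Cx3cl1 had a peak, and Cxcl13, Cxcl16, Cxcl17 and Xcl1 had none.

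Among the receptors, 3 of 11 CC receptors had a peak in any list, namely Ccr6, Ccr9 and Ccr10. The others had none, among them Ccr2, the receptor of Ccl2, the eosinophil receptor Ccr3 and the lymph node homing receptor Ccr7. Of the 8 other receptors, Cxcr4 and Cx3cr1 had a peak, and Cxcr1, Cxcr2, Cxcr5, Cxcr6, Cxcr7 and Xcr1 had none. Any peak was carried by 11 of 37 ligands and 5 of 19 receptors. Reads that map to several places were removed by the authors, so the values of near-identical copies (Ccl21a, Ccl21b and Ccl21c, and Ccl27a and Ccl27b) are uncertain.

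The highest single scores of the members were those of Cxcl12 and Cxcl14 in HFD BAT H3K9me3. Ccl25 scored highest in SCD BAT and HFD WAT H3K9me3, and Ccr9 in SCD BAT and HFD WAT H3K9me2. Cxcl12, the ligand of Cxcr4 that retains blood cell precursors and lymphocytes in bone marrow, had BAT peaks with scores of 195 for H3K9me2 and 555 for H3K9me3 in HFD mice, against 67.5 and 232 in SCD mice. Its WAT peaks scored 135 for H3K9me2 and 85.8 for H3K9me3 in HFD mice, against 219 and 104 in SCD mice. Cxcl12 scores were thus higher in HFD than in SCD in BAT and lower in WAT, under both marks.

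Cxcl14, a ligand that brown fat secretes and that attracts macrophages, had BAT scores of 206 for H3K9me2 and 460 for H3K9me3 in HFD mice, against 87.7 and 222 in SCD mice. In WAT its scores were 52.6 and 65.7 in HFD mice, against 190 and 78.5 in SCD mice. The order of the diets was the same as for Cxcl12 in each tissue and mark. The HFD WAT H3K9me2 score of Cxcl14 lay just inside the lowest score counted. The place of a peak within its own list does not depend on the scale of the scores but moves with the list, since of all genes with a peak in both diets 52.2% stood higher in HFD for BAT H3K9me2 and 85.0% for BAT H3K9me3. The corresponding shares in WAT were 56.8% for H3K9me2 and 72.4% for H3K9me3. In percent of peaks with a lower score, Cxcl12 stood at 93.5 in HFD BAT and 30.5 in SCD BAT for H3K9me2, and at 94.8 in HFD BAT and 68.0 in SCD BAT for H3K9me3. In WAT it stood at 79.0 in HFD mice and 88.1 in SCD mice for H3K9me2, and at 59.9 in HFD mice and 78.6 in SCD mice for H3K9me3. Cxcl14 stood at 94.3 in HFD BAT and 50.3 in SCD BAT for H3K9me2, and at 7.07 in HFD WAT and 84.4 in SCD WAT.

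A peak in 6 lists was found for Ccl25, Ccr9, Ccr10 and Cxcl3. Ccl25, the thymic and intestinal ligand of Ccr9, scored 382 in HFD BAT and 425 in SCD BAT for H3K9me3, and 65.4 in HFD BAT and 134 in SCD BAT for H3K9me2. In WAT it had an H3K9me2 peak in SCD mice alone (153) and an H3K9me3 peak in HFD mice alone (149). Ccr9, its receptor, scored 348 in HFD BAT and 216 in SCD BAT for H3K9me3, and 120 in HFD BAT and 147 in SCD BAT for H3K9me2. In WAT, Ccr9 was called in HFD mice alone, with scores of 209 for H3K9me2 and 55.5 for H3K9me3. Thus both the ligand and the receptor were called in all 4 BAT lists, although the start of each used here lies beside that of an unrelated gene, as described below.

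Ccr10, the receptor of Ccl27 on skin-homing T cells, scored 229 in HFD BAT and 87.3 in SCD BAT for H3K9me3, and 61.1 in HFD WAT and 153 in SCD WAT for H3K9me2. It had an H3K9me2 peak in HFD BAT (69.4) and an H3K9me3 peak in HFD WAT (56.5), with none in the matching SCD lists. Cxcl3, a neutrophil attractant acting through Cxcr2, scored 130 in HFD WAT and 101 in SCD WAT for H3K9me2, and 77.0 in HFD BAT and 55.7 in SCD BAT for H3K9me3. Its other peaks were in HFD mice alone, with 84.0 for H3K9me2 in BAT and 98.4 for H3K9me3 in WAT. Cx3cl1, which is anchored to the cell membrane and binds Cx3cr1, had 5 peaks, at 54.7 for H3K9me2 in HFD BAT alone, at 72.9 in HFD BAT and 106 in SCD BAT for H3K9me3, and at 87.3 for H3K9me2 and 55.3 for H3K9me3 in SCD WAT alone.

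**Figure D2:**
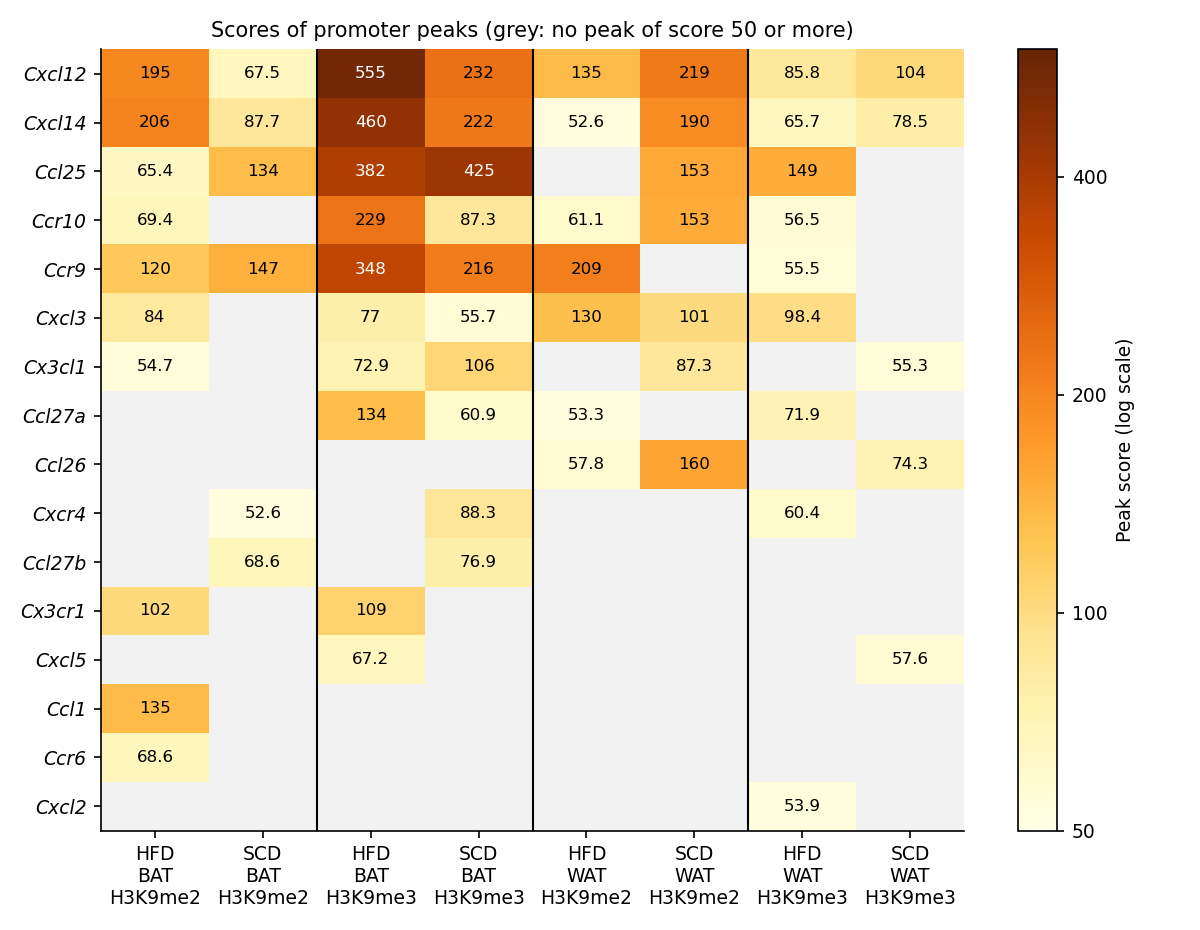
Peak scores (color, log scale, and printed in each cell) of the 16 members with a promoter peak, by list, with HFD left of SCD in each tissue and mark and grey where no peak scored 50 or more. Cxcl12 and Cxcl14 are filled in all 8 lists, with HFD above SCD in BAT and below it in WAT.

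Comparing the diets in BAT, 12 members had an H3K9me2 peak in either diet, against 58.6% of all genes. The peaks were found in HFD only at 6 members (against 14.4% of all genes), in SCD only at 2 (against 11.0% of all genes) and in both diets at 4 (against 33.2% of all genes). The HFD only members were Ccl1 (score 135), a ligand of Ccr8, the fractalkine receptor Cx3cr1 (102), Cxcl3 (84.0), Ccr10 (69.4), Ccr6 (68.6), the receptor of Ccl20, and Cx3cl1 (54.7). The SCD only members were Ccl27b (68.6), a copy of the skin chemokine Ccl27, and Cxcr4 (52.6). As a share of the 56 members, HFD only genes made 10.7% and SCD only genes 3.57%, each below the share among all genes.

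For H3K9me3 in BAT, 12 members had a peak in either diet, against 62.5% of all genes. Of these, 2 members were HFD only (against 9.14% of all genes), 2 were SCD only (against 1.84% of all genes) and 8 were found in both diets (against 51.5% of all genes). The HFD only members were Cx3cr1 (109) and the neutrophil attractant Cxcl5 (67.2), and the SCD only members were Cxcr4 (88.3) and Ccl27b (76.9). Cx3cr1 was therefore called in HFD BAT and not in SCD BAT under both marks, and Cxcr4 and Ccl27b in SCD BAT and not in HFD BAT under both marks. The HFD BAT lists were longer than the SCD BAT lists under both marks. When the longer list of each pair was cut to the length of the shorter by score, 3 members were HFD only and 3 SCD only for H3K9me2, against 7.85% and 19.0% of all genes. For H3K9me3, 1 member was HFD only and 4 were SCD only at equal lengths, against 3.82% and 5.91% of all genes.

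In WAT, 9 members had an H3K9me2 peak in either diet, against 50.9% of all genes. The mark was HFD only at 2 members, Ccr9 (209) and Ccl27a (53.3), against 7.31% of all genes. It was SCD only at 2 members, Ccl25 (153) and Cx3cl1 (87.3), against 10.3% of all genes, and was found in both diets at 5 members, against 33.2% of all genes. Among those 5 was Ccl26, named after a human eosinophil attractant, which scored 57.8 in HFD WAT and 160 in SCD WAT. The Ccr9 peak lay nearest to a start of Slc6a20a, the Ccl27a peak to one of Il11ra1 and the Ccl25 peaks to one of Elavl1. When the nearest start had to belong to the member, 0 members were HFD only, against 6.93% of all genes. At that setting 1 member was SCD only, against 10.1% of all genes.

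For H3K9me3 in WAT, 12 members had a peak in either diet, against 38.9% of all genes. Of these, 7 were HFD only (against 31.8% of all genes), 3 were SCD only (against 1.72% of all genes) and 2 were found in both diets (against 5.45% of all genes). The HFD only members were Ccl25 (149), Cxcl3 (98.4), Ccl27a (71.9), Cxcr4 (60.4), Ccr10 (56.5), Ccr9 (55.5) and Cxcl2 (53.9), a neutrophil attractant. Of their peaks, that of Ccl25 lay nearest to a start of Elavl1 and that of Ccr9 to one of Slc6a20a. The SCD only members were Ccl26 (74.3), Cxcl5 (57.6) and Cx3cl1 (55.3). The HFD list held 29190 peaks and the SCD list 8350, and with equal numbers of peaks 1 member was HFD only and 5 were SCD only, against 9.31% and 3.96% of all genes. The order of the diets for this mark in WAT thus turned with list length among the members, and it did not turn among all genes.

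Several scores were close to the lowest one counted. Just inside it were Cxcr4 in SCD BAT H3K9me2 and Cxcl14 in HFD WAT H3K9me2 (both 52.6), Ccl27a in HFD WAT H3K9me2 (53.3) and Cxcl2 in HFD WAT H3K9me3 (53.9), and 11 of the 64 promoter peaks scored under 60. Just outside it, in the SCD WAT H3K9me2 list, were the scavenging receptor Cxcr7 (42.8), Cxcl16 (34.4), Cxcl1 (34.0), Cxcr4 (33.2) and Ccr8 (31.2). In the SCD WAT H3K9me3 list Ccl27a (41.7) and Ccl25 (30.8) lay outside it. Scores under 50 could be seen in these SCD WAT lists alone, since the others start at 50, so a gene that scored under 50 in HFD WAT would not show.

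Among members with a peak in both diets, the place in the list was higher in HFD for 3 of 4 members in BAT H3K9me2 (against 52.2% of all genes) and 7 of 8 in BAT H3K9me3 (against 85.0% of all genes). It was higher in HFD for 1 of 5 in WAT H3K9me2 (against 56.8% of all genes) and 0 of 2 in WAT H3K9me3 (against 72.4% of all genes). Cxcl3 was the member of WAT H3K9me2 with the higher place in HFD, at 77.3 in HFD WAT and 56.2 in SCD WAT. Ccl26 stood at 19.8 in HFD WAT and 78.4 in SCD WAT, and Ccr10 at 26.5 in HFD WAT and 76.5 in SCD WAT.

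Setting the tissues side by side in HFD mice, 5 members carried H3K9me2 in both BAT and WAT (Cxcl3, Cxcl12, Ccr9, Ccr10 and Cxcl14), against 30.2% of all genes. In BAT only there were 5 (Ccl25, Cx3cl1, Cx3cr1, Ccl1 and Ccr6), against 17.4% of all genes, and in WAT only 2 (Ccl27a and Ccl26), against 10.4%. In SCD mice H3K9me2 was shared by the tissues at 3 members (against 34.7% of all genes), BAT only at 3 (9.59%) and WAT only at 4 (8.9%). For H3K9me3 in HFD mice, 7 members were shared by the tissues, 3 were BAT only and 2, Cxcr4 and Cxcl2, were WAT only, against 34.4%, 26.2% and 2.83% of all genes. In SCD mice H3K9me3 was BAT only at 7 members, against 47.5% of all genes, shared at 3 (Cxcl12, Cx3cl1 and Cxcl14), against 5.82%, and WAT only at 2 (Cxcl5 and Ccl26), against 1.34%.

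The marks overlapped in part. In HFD BAT, 8 members carried both marks, 2 carried H3K9me2 only (Ccl1 and Ccr6) and 2 carried H3K9me3 only (Ccl27a and Cxcl5). In SCD BAT, 6 members carried both marks, 0 carried H3K9me2 only and 4 carried H3K9me3 only (Ccl27a, Cxcl3, Cx3cl1 and Ccr10). In HFD WAT, 6 members carried both, 1 H3K9me2 only and 3 H3K9me3 only, and in SCD WAT 4 carried both, 3 H3K9me2 only and 1 H3K9me3 only. Among all genes, both marks were found at 42.7% in HFD BAT, 41.2% in SCD BAT, 27.1% in HFD WAT and 6.03% in SCD WAT. H3K9me2 only was found at 4.92% in HFD BAT, 3.02% in SCD BAT, 13.4% in HFD WAT and 37.5% in SCD WAT, and H3K9me3 only at 18% in HFD BAT, 12.1% in SCD BAT, 10.1% in HFD WAT and 1.13% in SCD WAT.

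The 64 promoter peaks were 549 to 1720 bp wide (median 902) with a GC content of 52.0% to 70.4% (median 62.5%), and no member had more than 1 promoter peak in a list. Of these peaks, 49 covered an annotated start. At 11 of the 13 members with more than 1 peak, the peaks of all its lists had bases in common. The 8 Cxcl12 peaks had 1022 bp in common (chr6:117118394-117119415) and the 8 Cxcl14 peaks had 621 bp in common (chr13:56397290-56397910). The 6 Cxcl3 peaks shared 511 bp over the start (chr5:91215007-91215517), and the 5 Cx3cl1 peaks shared 679 bp (chr8:97295739-97296417).

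Other members were marked away from the start. The Ccl27a peak of HFD WAT H3K9me2 had its middle 2682 bp downstream of a start and had 0 bp in common with the other 3 Ccl27a peaks, which covered another start. The Ccr10 peaks had their middle 1302 to 1504 bp downstream of the start and shared 545 bp (chr11:101034996-101035540), and the Ccl26 peaks had theirs 2458 to 2557 bp downstream. The Cx3cr1 peaks lay upstream, with middles at -1907 and -1886 bp from the start (chr9:119978865-119979708 in common), and the middle of the Ccr6 peak lay at -2628 bp from the start it was assigned to, where negative distances are upstream. Cxcr4, the receptor of Cxcl12, had peaks at different places in the tissues. Its HFD WAT H3K9me3 peak was centered at -11 bp, whereas its SCD BAT peaks had middles at -986 bp for H3K9me2 and -991 bp for H3K9me3, and the BAT and WAT peaks had 0 bp in common. With 1 library per group, whether that shift belongs to the tissue, the diet or the library cannot be told apart.

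**Figure D3:**
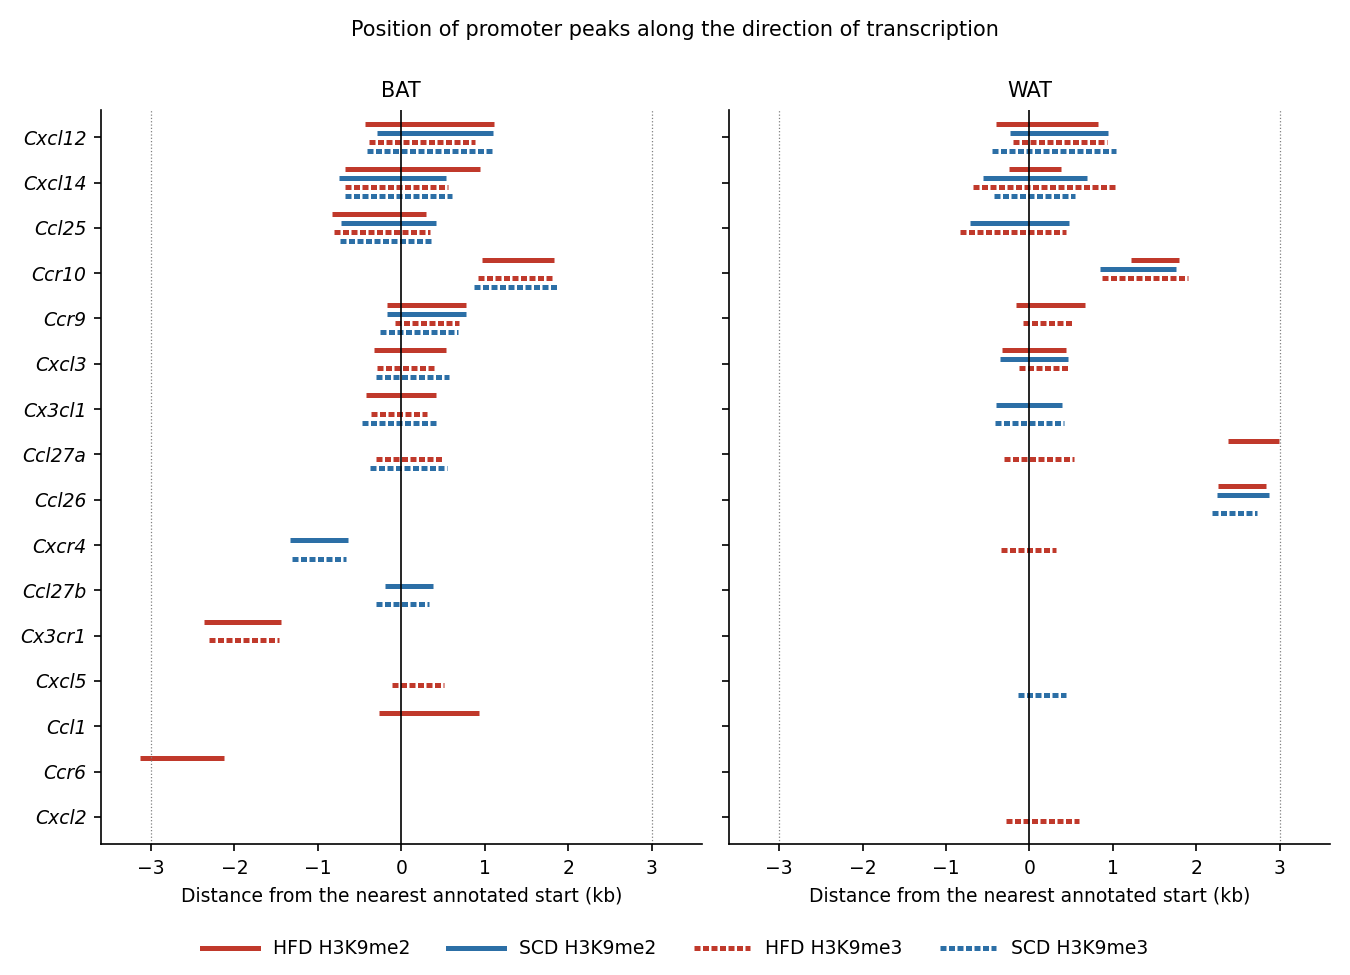
Extent of each promoter peak relative to the nearest annotated start of the member, in kb along the direction of transcription, in BAT (left) and WAT (right). Lines are red for HFD and blue for SCD, solid for H3K9me2 and dashed for H3K9me3, and 49 of the 64 peaks cross the start, while those of Ccr10, Ccl26, Cx3cr1, Ccr6, the BAT peaks of Cxcr4 and the WAT H3K9me2 peak of Ccl27a do not.

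Some calls rested on starts shared with a neighbor or far from the coding sequence. Of the 64 peaks, 51 were nearer to a start of the member than to that of any other protein-coding gene, and the other 13 were the 6 of Ccl25, the 6 of Ccr9 and 1 of Ccl27a. The Ccl25 start used lies 110 bp from that of Elavl1, an RNA-binding protein gene, and 24.4 kb from the Ccl25 start nearest the start codon. The Ccr9 start used lies 343 bp from that of Slc6a20a, an amino acid transporter gene, and 88.8 kb from the start nearest the start codon, where no list had a peak. The Ccl1 peak lay at a start 126 kb from the start nearest the start codon, and the Ccr6 peak at one 8.87 kb from it. With the start nearest the start codon as the only start of each gene, Ccl1, Ccl25, Ccr6 and Ccr9 had no peak and 12 members kept one in any list, so the values of these 4 genes describe the distal starts.

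Promoters of the members held fewer CpG dinucleotides than those of all genes. The median over the 300 bases was 4.0 for the members (range 1.0 to 52.0) and 12.0 for all genes. The median was 9.0 in the 16 members with a peak (range 3.0 to 52.0) and 3.0 in the 40 without (range 1.0 to 12.0), and among all genes it was 18 with a peak in any list and 3.0 without. At the start nearest the start codon the median was 6.0 in these 16 members (range 1.0 to 26.0) and 3.0 in the 40 without. For all genes it was 10.0 at that start. With 0 to 4 CpG, 4 of 32 members (12.5%) had a peak in any list, against 31.0% of all genes with as many. With 5 to 9 CpG the counts were 4 of 13 members (30.8%), against 62.9% of all genes, and with 10 to 14 CpG 3 of 6 (50%), against 81.0%. All 5 members with 15 CpG or more (Cxcl12, Cxcl14, Ccl25, Ccr9 and Cxcr4) had a peak, against 95.4% of all genes. Of these, Ccl25 and Ccr9 were counted at the starts beside Elavl1 and Slc6a20a. At the share of all genes 39.0 of the 56 members would carry a peak, and at the share of all genes within their own CpG class 27.7 would, where 16 did.

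Members with like CpG numbers differed in their calls. Cxcl3 and Cxcl1, printed above, both held 10 CpG, and Cxcl3 had 6 peaks while Cxcl1 had none of score 50 or more. Ccr10, with 5 CpG, had 6 peaks, although these lay downstream of its start and the start of Cntnap1 lies 598 bp from that of Ccr10. Cxcr4, with 20 CpG as in Cxcl12, had 3. In the same windows the TATA box letters TATAAA, sought on both strands, were present in 17 members (30.4%), against 13.5% of all promoters, and the NF-kB consensus, sought on both strands, in 11 members (19.6%), against 9.01%. The TATA letters were found in 3 of the 16 members with a peak (18.8%) and 14 of the 40 without (35.0%). Among all genes they were found in 8.52% with a peak in any list and 25.0% without. The TATA share was thus lower with a peak in members and all genes alike. The NF-kB consensus was found in 3 of the 16 members with a peak and 8 of the 40 without. Among all genes it was found in 10.4% with a peak and 5.86% without.

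**Figure D4:**
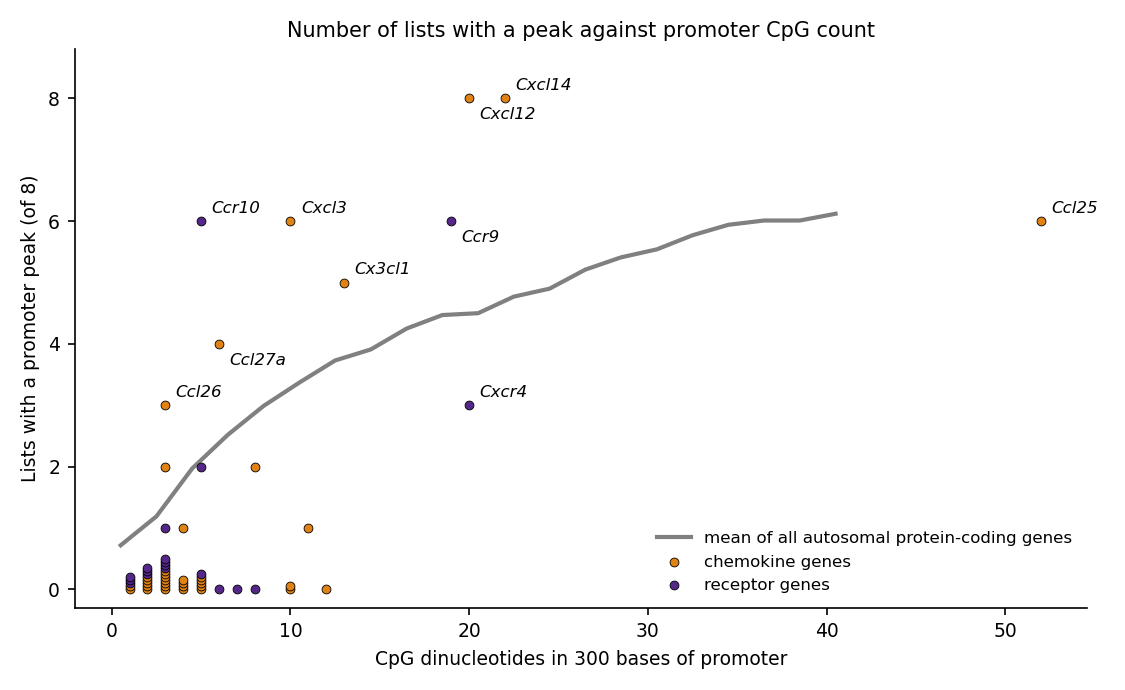
Number of lists with a promoter peak (0 to 8) against the number of CpG dinucleotides in 300 bases of promoter for the 56 members (orange chemokines, purple receptors), with points at the same place stacked slightly upward. The grey line is the mean of all genes by CpG number, and the 40 members at 0 lists hold 1 to 12 CpG.

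Peaks were also farther from the starts of members than from those of all genes in each list. From the start of a member to the nearest H3K9me2 peak the median distance was 26.6 kb in HFD BAT and 46.3 kb in SCD BAT, against 4.1 kb in HFD BAT and 7.36 kb in SCD BAT for all genes. For H3K9me3 in BAT it was 18.9 kb in HFD mice and 28.2 kb in SCD mice, against 0 kb in HFD mice and 0.606 kb in SCD mice for all genes. In WAT the members' medians were 49.1 kb in HFD mice and 44.7 kb in SCD mice for H3K9me2, and 33.0 kb in HFD mice and 134 kb in SCD mice for H3K9me3. Those of all genes were 11.7 kb in HFD mice and 8.21 kb in SCD mice for H3K9me2, and 10.9 kb in HFD mice and 112 kb in SCD mice for H3K9me3.

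Many members lie in gene clusters, here 3 or more members with gaps of at most 200 kb. The Ccl2 to Ccl1 cluster (chr11:81846073-82122192) holds 6 CC ligand genes over 276 kb. It had 2 H3K9me2 peaks in HFD BAT and 2 in SCD BAT, 0 H3K9me3 peaks in HFD BAT and 1 in SCD BAT, and 0 in all 4 WAT lists. Its H3K9me2 peaks came to 0.724 per 100 kb in HFD BAT, against 1.72 for all autosomes, and to 0.724 in SCD BAT, against 0.956. For H3K9me3 the rates were 0 in HFD BAT, against 2.03, and 0.362 in SCD BAT, against 1.02. In WAT, where the cluster had 0 peaks, all autosomes had 0.841 in HFD mice and 0.846 in SCD mice for H3K9me2. For H3K9me3 in WAT they had 1.12 in HFD mice and 0.305 in SCD mice. The Ccl1 record, with a start 126 kb from that nearest the start codon, takes up 144 to 273 kb from the left end. All peaks of the cluster began within that record, at 197, 251 and 272 kb. None lay along the stretch that holds Ccl2, Ccl7, Ccl11, Ccl12 and Ccl8. The Ccl5 to Ccl4 cluster (chr11:83336280-83481185) had no promoter peak, yet a region between Ccl5 and Ccl9 (chr11:83368494-83369769) had a peak in 5 lists with scores of 62.7 to 415.

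The Cxcl5 to Cxcl2 cluster (chr5:91185325-91337935) of neutrophil attractants held peaks in every list. There were 3 H3K9me2 peaks in HFD BAT and 1 in SCD BAT, 7 H3K9me3 peaks in HFD BAT and 3 in SCD BAT, 4 H3K9me2 peaks in HFD WAT and 2 in SCD WAT, and 3 H3K9me3 peaks in HFD WAT and 2 in SCD WAT. In BAT its H3K9me3 peaks came to 4.59 per 100 kb in HFD mice and 1.97 in SCD mice, against 2.03 in HFD mice and 1.02 in SCD mice for all autosomes, and its H3K9me2 peaks to 1.97 in HFD mice and 0.655 in SCD mice, against 1.72 in HFD mice and 0.956 in SCD mice. In WAT they came to 2.62 in HFD mice and 1.31 in SCD mice for H3K9me2, against 0.841 in HFD mice and 0.846 in SCD mice, and to 1.97 in HFD mice and 1.31 in SCD mice for H3K9me3, against 1.12 in HFD mice and 0.305 in SCD mice. Besides the Cxcl3 promoter, a region nearest to Cxcl15 (chr5:91247155-91248496) carried a peak in 7 lists with scores of 106 to 455, the exception being SCD WAT H3K9me3.

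**Figure D5:**
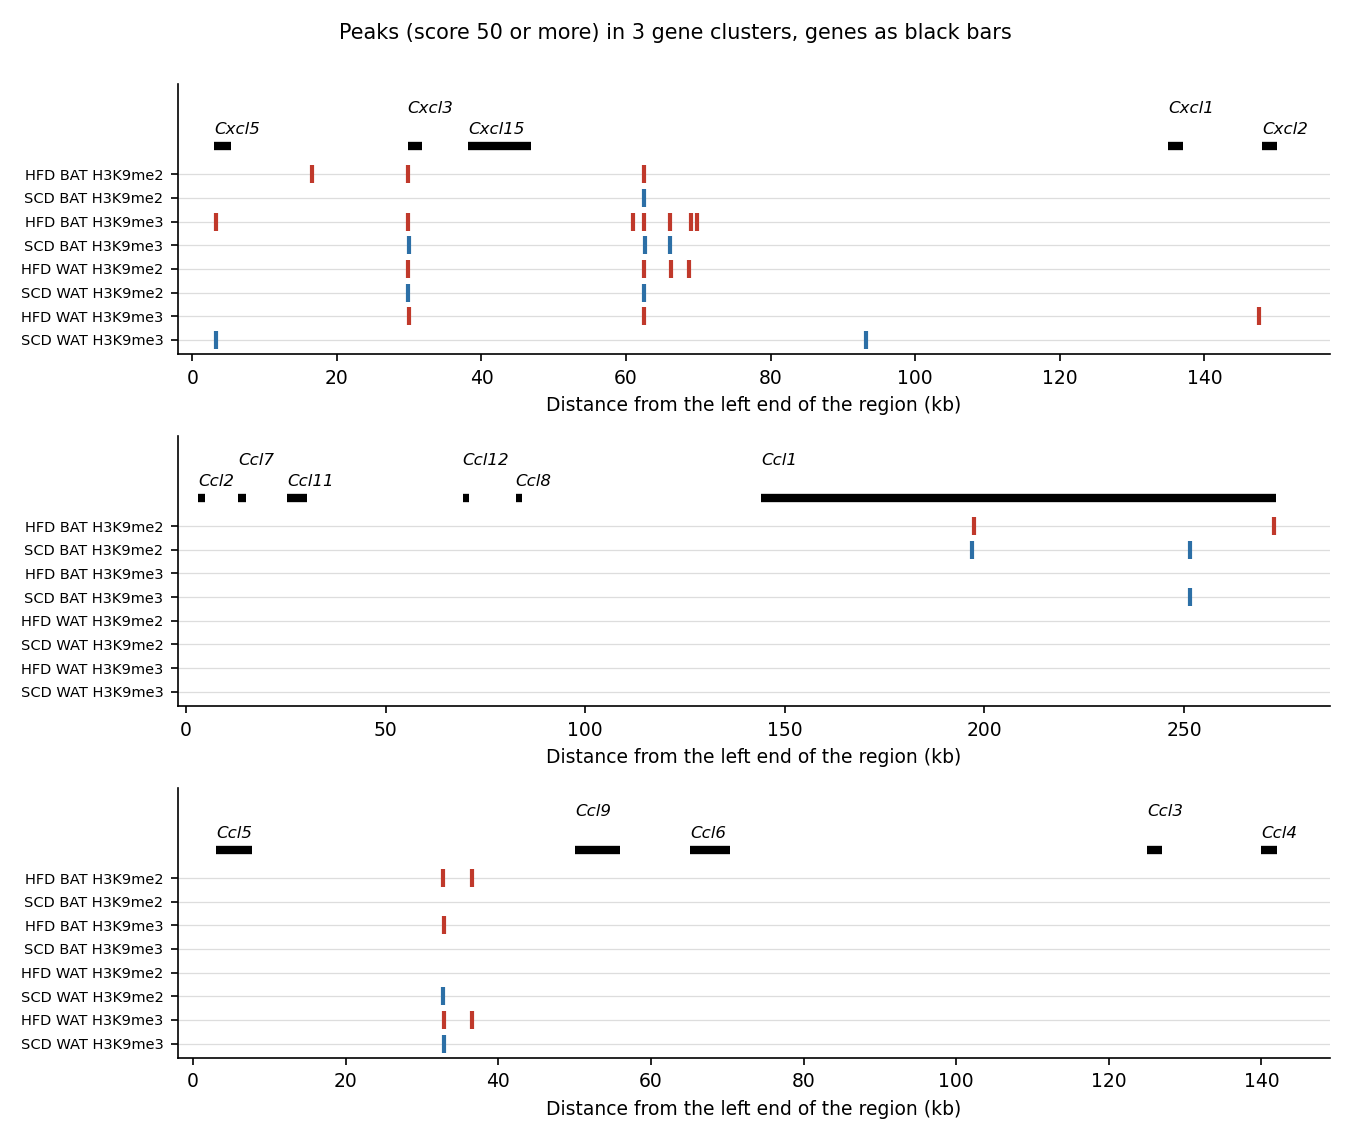
Peaks of score 50 or more (ticks, red for HFD and blue for SCD, one line per list) along 3 clusters of members, with genes as black bars and distance in kb from the left end of each region. The Ccl2 to Ccl1 cluster has 2 H3K9me2 peaks in BAT of each diet, all along the long Ccl1 record, and 0 in WAT. The Cxcl5 to Cxcl2 cluster shows recurring peaks at Cxcl3 and beyond Cxcl15 (7 lists), and those of the Ccl5 to Ccl4 cluster lie between Ccl5 and Ccl9.

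Genes that signal downstream of the receptors were counted in the same way. Of 39 such genes, 35 (89.7%) had a promoter peak in any list, against 69.7% of all genes. In BAT, H3K9me2 was called at 24 of them (61.5%) in HFD mice and 25 (64.1%) in SCD mice, against 47.6% and 44.3% of all genes, and H3K9me3 at 33 (84.6%) in HFD mice and 30 (76.9%) in SCD mice, against 60.6% and 53.3%. In WAT, H3K9me2 was called at 19 (48.7%) in HFD mice and 23 (59.0%) in SCD mice, against 40.5% and 43.6% of all genes, and H3K9me3 at 21 (53.8%) in HFD mice and 2 (5.13%) in SCD mice, against 37.2% and 7.16%. Elmo1, which acts with Dock2 to turn on Rac in migrating cells, scored 936 in HFD BAT and 944 in SCD BAT for H3K9me3. In BAT, H3K9me2 was HFD only at 7 of the 39 and SCD only at 8, against 14.4% and 11.0% of all genes. The highest SCD only scores there were those of Gnb1 (133), Ptk2 (99.8) and Jak2 (78.9). Akt1, a kinase of the PI3K pathway, carried H3K9me2 in HFD BAT and not SCD BAT (228), and in SCD WAT and not HFD WAT (98.9). Stat3, a transcription factor that cytokine receptors turn on, carried H3K9me3 in HFD BAT (227) and not in SCD BAT.

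A further list held 8 genes outside the naming rule, chosen as related ligands and atypical receptors, although Cmtm3 is neither. Of these, 5 carried H3K9me2 in HFD BAT and 0 in SCD BAT, against 47.6% and 44.3% of all genes. The 5 were the decoy receptor Ccbp2 (77.5), Cmtm3 (68.4), the platelet chemokine Pf4 (67.2), the chemerin receptor Cmklr1 (65.9) and the Duffy antigen gene Darc (64.9). H3K9me3 lay at 3 of the 8 in HFD BAT and 1 in SCD BAT, and in WAT each mark lay at 1 in HFD mice and 0 in SCD mice. The SCD BAT H3K9me3 peak (127) and the HFD WAT H3K9me2 peak (65.9) were those of Cmtm3. Ppbp, Ccrl1 and Ccrl2 had no peak in any list. Among 7 macrophage markers, H3K9me2 peaks lay at 2 in HFD BAT and 0 in SCD BAT, Csf1r (187) and Cd14 (55.0), and H3K9me3 peaks at 2 in HFD BAT, Cd14 (59.4) and Itgam (55.4), and 0 in SCD BAT. In WAT, H3K9me3 lay at Cd14 (80.8) in HFD mice and at 0 of them in SCD mice, and H3K9me2 at 0 in either diet, while Emr1 and Cd68 had no peak in any list. Among 8 lymphocyte markers, 1 had an H3K9me2 peak in HFD BAT and 1 in SCD BAT, 0 had an H3K9me3 peak in HFD BAT and 1, Cd8a (63.8), in SCD BAT, and none had a peak in WAT. In the same lists 7.16% to 60.6% of all genes had a peak. The part that differing numbers of these cells had in the members' calls was not tested.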

How the data were processed

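Chromatin from BAT and WAT was immunoprecipitated for H3K9me2 or H3K9me3 and sequenced, with 1 library per diet, tissue and mark. Per the labels and methods, the authors checked and trimmed reads with FastQC and Trim Galore, aligned them with Bowtie2 2.4.2, removed reads that map to several places and called peaks with MACS2. The deposited lists give each peak's interval and a score from the authors' peak caller, whose unit is not stated. No count or depth is given, so no interval or test could be computed and 1 library per group gives no error.

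Peaks with a score of 50 or more within 3 kb of any start of a protein-coding GENCODE vM1 gene (mm9) were counted, with overlapping records of a symbol merged. None of the placed peaks ran past a chromosome end. Named with values were members with a peak in 6 lists or more, up to 4 members of highest score called in HFD only and in SCD only per tissue and mark, members with opposite calls, and up to 3 such genes of each other list. The remaining members with a peak, the markers, Darc, Cmklr1 and the BAT scores of Elmo1 were added after their values were seen. The members and lists were chosen with earlier results of these data known. CpG classes, clusters, places in the list and the start nearest the start codon were chosen after seeing the data. Counting was tested on simulated data, where 100 of 100 planted promoter peaks and 0 of 100 peaks planted outside were called. These peaks were planted clear of the 3 kb limit, at genes with a lone annotated start far from other genes. The simulation therefore checks the code only, and calls at shared or distal starts were not tested. Python 3.11.15, NumPy 2.4.6, matplotlib 3.10.9 and bedtools 2.31.1 were used.

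As alternatives, all deposited peaks, a lowest score of 80, equal numbers of peaks, 1 kb on either side, 1 start per gene, only peaks whose nearest start is that of the gene, and the start nearest the start codon were tried. 1 gene of the set and the cluster it lies in are not reported here by name.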

Additional observations from a re-analysis of the deposited data

Results flagged for a closer look

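At 4 members the diets had opposite calls in different tissues or marks, and none of these differences was tested. The share of all genes with opposite calls is not given here, so the 4 cannot be set against a general rate. By tissue and mark, 7.31% to 31.8% of all genes were HFD only and 1.72% to 11.0% were SCD only. Cxcr4 had a peak in SCD only in BAT, with scores of 52.6 for H3K9me2 and 88.3 for H3K9me3, and in HFD only in WAT, with 60.4 for H3K9me3. Cxcl5 carried H3K9me3 in HFD only in BAT (67.2) and in SCD only in WAT (57.6). Ccl25 had in WAT an H3K9me3 peak in HFD only (149) and an H3K9me2 peak in SCD only (153). Both peaks lay nearest to the start of Elavl1. In SCD WAT H3K9me3, Ccl25 had a peak of 30.8, under the lowest score counted. Cx3cl1 had a peak in HFD only for H3K9me2 in BAT (54.7) and in SCD only in WAT, at 87.3 for H3K9me2 and 55.3 for H3K9me3. Of these scores, 4 lay under 60.

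Cxcl12 and Cxcl14, which had a peak in all 8 lists, stood higher in their lists in HFD than in SCD in BAT and lower in WAT. Of all genes with a peak in both diets, 52.2% in BAT and 56.8% in WAT for H3K9me2, and 85.0% in BAT and 72.4% in WAT for H3K9me3, also stood higher in HFD, so the BAT H3K9me3 differences run the way of most genes. In percentile points, HFD minus SCD, Cxcl12 differed by 63.1 in BAT and -9.2 in WAT for H3K9me2, and by 26.9 in BAT and -18.7 in WAT for H3K9me3. Cxcl14 differed by 44.0 in BAT and -77.3 in WAT for H3K9me2, and by 26.0 in BAT and -26.5 in WAT for H3K9me3. With 1 library per group the difference between the tissues was not tested. The lists they stand in differ in length between the diets, from 8350 to 52758 peaks.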

How the results depend on the processing

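Of 112 values under 7 alternatives, 84 stayed within 1.5 times the count reported and 28 did not. These 28 follow, each with the share of all genes at that setting in brackets. No paired analysis was possible because each diet, tissue and mark has 1 library and the labels give no replicate numbers. For the same reason no library could be left out. The share of members lay below that of all genes in 7 lists under 5 alternatives, and in all 8 with all deposited peaks and with a lowest score of 80. With all deposited peaks, 12 members had a peak in SCD WAT H3K9me2 (56.2%) and 7 were SCD only there (18.3%). With a lowest score of 80, the members with a peak were 6 in HFD BAT H3K9me2 (27.8%), 3 in SCD BAT H3K9me2 (29.9%), 3 in HFD WAT H3K9me2 (27.7%), 3 in HFD WAT H3K9me3 (20%) and 1 in SCD WAT H3K9me3 (2.68%). The HFD only members were then 1 in WAT H3K9me2 (8.22%) and 2 in WAT H3K9me3 (18.2%), and the SCD only members 1 in BAT H3K9me2 (13.3%), 5 in WAT H3K9me2 (10.9%) and 0 in WAT H3K9me3 (0.914%). With equal numbers of peaks, 6 members had a peak in HFD BAT H3K9me2 (33.1%) and 1 in HFD WAT H3K9me3 (12.5%). The HFD only members were then 3 in BAT H3K9me2 (7.85%), 1 in BAT H3K9me3 (3.82%) and 1 in WAT H3K9me3 (9.31%), and the SCD only members 4 in BAT H3K9me3 (5.91%) and 5 in WAT H3K9me3 (3.96%). Within 1 kb of a start, 4 members had a peak in HFD WAT H3K9me2 (38.1%), and 1 was HFD only in BAT H3K9me3 (8.17%) and 1 in WAT H3K9me2 (7.16%). With 1 start per gene, 1 member was HFD only in WAT H3K9me2 (7.42%). When the nearest start had to belong to the member, 0 were HFD only (6.93%) and 1 SCD only (10.1%) in WAT H3K9me2. With the start nearest the start codon, chosen after seeing the data, 6 members had a peak in HFD BAT H3K9me2 (40.5%), and 1 was HFD only (6.96%) and 1 SCD only (9.4%) in WAT H3K9me2. The cause of these shifts was not tested beyond the number of peaks or starts that each setting leaves. Depth is unknown and limits every absence of a peak.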
